A study of Mus musculus with 67 samples.

Results

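Monocytes and their marrow progenitors read the growth factors around them through a small set of cell surface receptors, and the genes for 9 of these receptor chains were followed here: Csf1r, Flt3, Kit, Csf2ra, Il3ra, Csf2rb, Csf2rb2, Csf3r and Il6ra. They were taken by symbol, and each symbol was found once in each of the 3 deposited tables, 9 of 24421 listed genes. All 9 passed the filter on low values (at least 2 RPM, reads per 1000000 reads, in at least 3 libraries of the 7-week table or 2 of the other tables). Kit passed in the transfer table through spleen cells of the hosts and in the other tables mostly through progenitors, so a difference of Kit between those groups and the others follows partly from the filter; in the transfer table such differences are given with no p and not counted among calls.

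Csf1r encodes CD115, the tyrosine kinase receptor for M-CSF and IL-34, on which monocyte survival and differentiation depend. Flt3 (CD135) and Kit (CD117, the receptor for stem cell factor) are tyrosine kinases of the same structural class that act mainly on stem and progenitor cells and, for Flt3, on dendritic cells. Csf2ra and Il3ra encode the ligand-binding α chains for GM-CSF and IL-3, which signal through a shared β chain, Csf2rb; mice carry a second β chain gene, Csf2rb2, whose product pairs with the IL-3 α chain. Csf3r encodes the G-CSF receptor, best known from neutrophils, and Il6ra the α chain of the IL-6 receptor, which signals through gp130. The β chains, the G-CSF receptor and gp130 work through JAK kinases and STAT factors.

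RNA was captured on oligo-dT beads from cells sorted by flow cytometry, and 67 libraries in 28 groups were used. In C57BL/6 mice of 7 weeks, 4 marrow and 3 blood groups were compared, with 3 or 4 libraries each: MDP and cMoP (in the field's use the monocyte and dendritic cell progenitor and the common monocyte progenitor), Ly6C+ and Ly6C- monocytes of marrow, and Ly6C+, Ly6Cint and Ly6C- monocytes of blood. Blood Ly6C+ and Ly6Cint monocytes labelled ko, and Ly6C+, Ly6Cint and Ly6C- monocytes labelled wt, came from 16-week mice of mixed background, with 2 libraries each; the titles say only ko and wt, and the series title names C/EBPb. A table shared with these held MDP, cMoP and Ly6C+ marrow monocytes of 8-week C57BL/6 mice, 2 libraries each. The transfer table, of 8-week C57BL/6 mice, held Ly6C+ marrow cells before transfer, the transferred cells 24, 36 and 48 h later in blood and in spleen, and the hosts' own Ly6C+, Ly6Cint and Ly6C- monocytes of blood and spleen at 24 h, 2 libraries each. No ko mice gave Ly6C- cells in the tables used here.

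Marrow cells, and blood cells of the 7-week and 16-week mice, were enriched with an antibody to CD115 before sorting. No such enrichment is stated for spleen cells, or for the blood cells of the transfer table. The sorting gates are not in the labels. In the field, MDP and cMoP are told apart by CD135 and from monocytes by CD117, and all carry CD115, so the levels of Flt3 between cMoP and MDP, and of Kit between monocytes and cMoP, are given as a description, with no p, and are left out of the counts of called members.

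Reads on listed genes ranged between 577690 and 3643327 per library in the 7-week table and between 942751 and 5478761 in the table of ko, wt and 8-week samples. One read was worth between 0.193 and 1.11 RPM in the 7-week table. The transfer table is scaled and rounded, its depth is unknown, and its libraries list between 7734 and 11719 genes above 0. Ly6c2, which encodes the Ly6C antigen, averaged 2709 RPM in 7-week Ly6C+ blood monocytes, 273 RPM in Ly6Cint and 30.0 RPM in Ly6C- cells, the order the labels give. Nothing in the labels ties each replicate to its own animal: the p-values below reflect how far these samples spread, and that spread may be technical. Throughout, ± after a mean is the SD over libraries, and ± after a log2 ratio, on the log2(RPM + 1) scale, is its standard error. A change was called at a Benjamini-Hochberg adjusted p under 0.05 over all genes of the table (limma).

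In the GRCm38 annotation Csf2rb lies at chr15:78325800-78351001 and Csf2rb2 beside it at chr15:78282507-78305721. Of 4715 windows of 50 bases in the Csf2rb transcript, 892 (18.9%) also occur in the Csf2rb2 transcript, so reads of the pair may have been shared between the rows, and the Csf2rb2 values, the lower of the pair, are the less certain. The other members lie at chr18:61105572-61131139 (Csf1r), chr5:147330741-147400489 (Flt3), chr5:75574987-75656722 (Kit), chr19:61217191-61228461 (Csf2ra), chr14:14345912-14355493 (Il3ra), chr4:126023441-126044975 (Csf3r) and chr3:89869324-89913196 (Il6ra). The Il6ra row names a transcript of 8639 bases in the 7-week and ko tables and one of 3343 bases in the transfer table, so its levels are not compared across those tables.

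The 7-week course had a simple outline, visible in the plot of the 9 genes over the 7 groups. Flt3 was high in MDP only, Kit was high in MDP and cMoP and low in monocytes, Csf1r and Csf2ra climbed towards the monocytes, and Csf3r, Il6ra and Il3ra differed between monocyte subsets. Between cMoP and MDP 2 of the 8 members other than Flt3 were called, both higher, against 9.25% (5.2% higher, 4.05% lower) of all 11373 genes tested. Between Ly6C+ marrow monocytes and cMoP 6 of the 8 members other than Kit were called, all higher, against 37.7% (15.3% higher, 22.4% lower). Between Ly6C+ monocytes of blood and of marrow 4 of 9 were called (3 higher, 1 lower), against 26% (7.32% higher, 18.7% lower). The 3 steps share groups, so their counts are not independent.

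**Figure D1:**
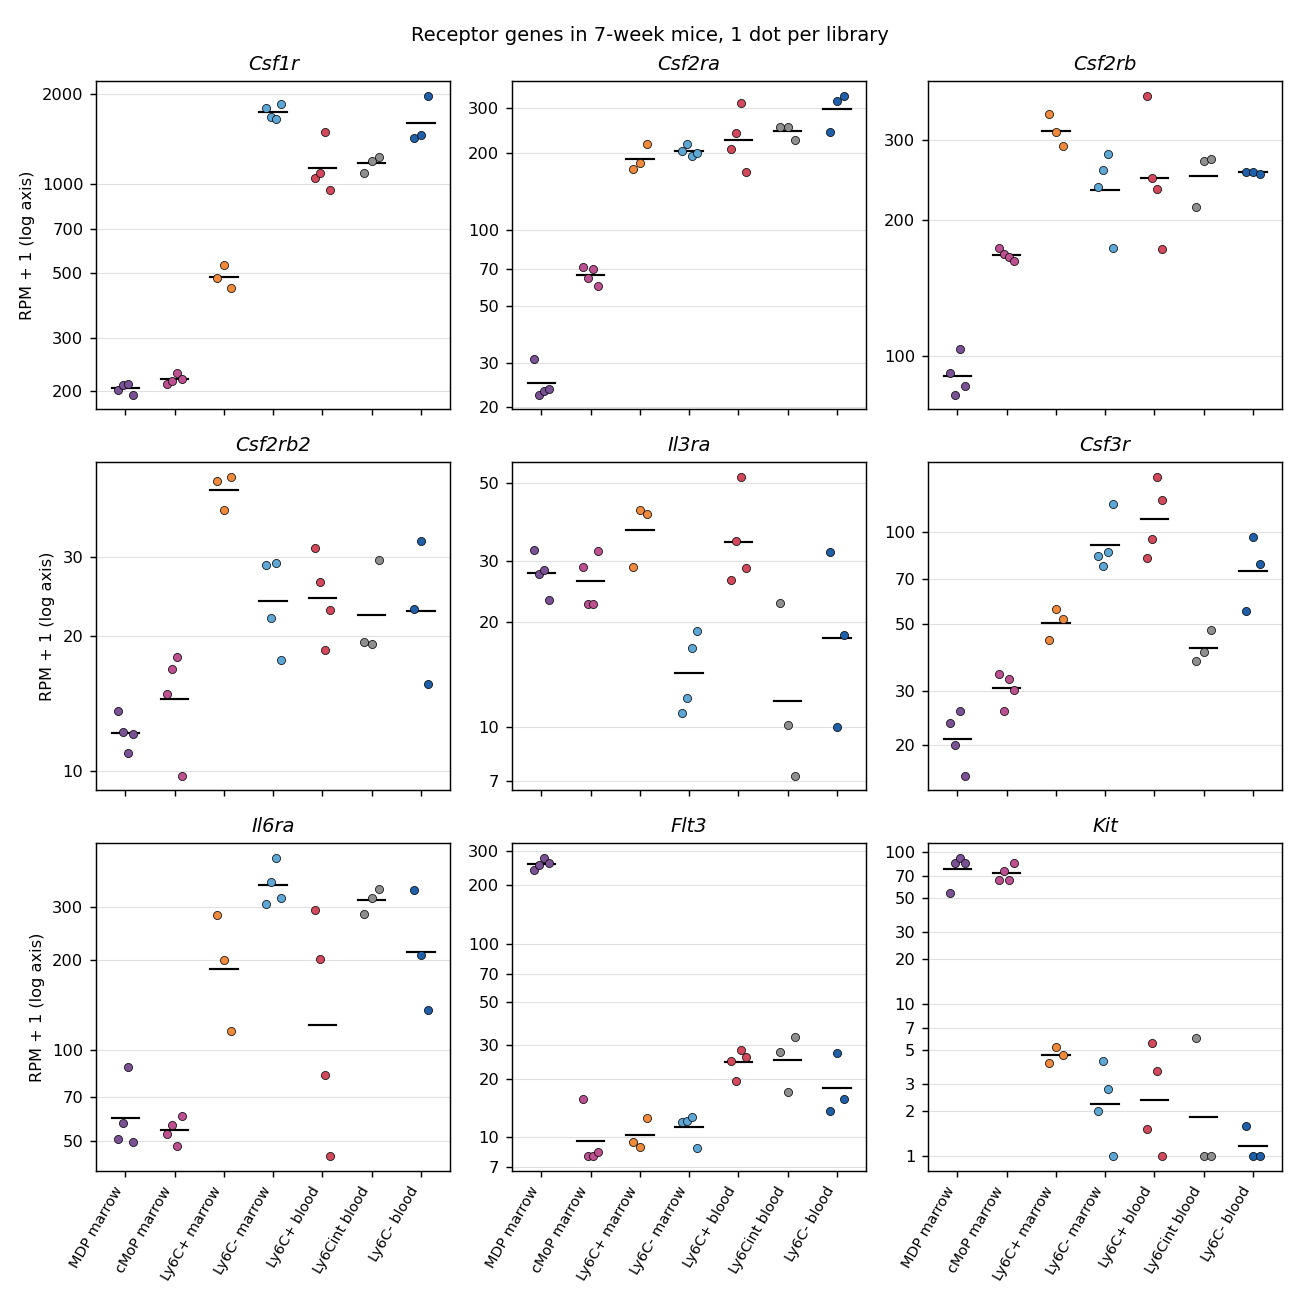
Each dot is 1 library of the 7-week table, each bar the geometric mean of its group, and the vertical axis is RPM + 1 on a log scale, 1 panel per gene. Flt3 stands at 240 to 276 RPM in MDP and under 33 RPM elsewhere, Kit is at most 5.01 RPM outside MDP and cMoP, and Csf1r is highest in the Ly6C- groups.

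Several of these comparisons moved the whole distribution of genes as well. The median log2 ratio of all genes was -0.17 for Ly6C+ marrow monocytes over cMoP, -0.19 for Ly6C+ blood over marrow, -0.21 for Ly6Cint over Ly6C+ blood, 0.20 for Ly6C- over Ly6Cint blood and -0.28 for Ly6C- over Ly6C+ marrow. Values relative to these medians are given beside the log2 ratios.

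Csf1r, the M-CSF receptor, was low in progenitors and higher in monocytes. It measured 201, 208, 210.0 and 193 RPM in the 4 MDP libraries and 209.6, 215, 229 and 219 RPM in the 4 cMoP libraries. Ly6C+ marrow monocytes had 478, 531 and 444 RPM and Ly6C+ blood monocytes 1043, 1086, 1489.7 and 953 RPM. MDP and cMoP overlapped, while every Ly6C+ marrow library stood above every progenitor library and below every blood library. The log2 ratio of Ly6C+ marrow monocytes over cMoP was 1.14 ± 0.14, or 1.31 relative to the median of all genes (limma adjusted p = 2.40e-07), and that of Ly6C+ blood over marrow was 1.22 ± 0.14, or 1.41 relative to the median (limma adjusted p = 1.39e-07). In bulk samples such as these, fewer cells of a type and less RNA per cell cannot be told apart.

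The highest Csf1r levels were in Ly6C- cells. Ly6C- marrow monocytes had 1798, 1677, 1645 and 1861 RPM, Ly6Cint blood monocytes 1083, 1196 and 1231 RPM and Ly6C- blood monocytes 1429, 1453 and 1975 RPM. In order of group means, Ly6C- marrow (1745 ± 101 RPM) and Ly6C- blood (1619 ± 309 RPM) overlapped, then Ly6Cint (1170 RPM as the mean of 3) and Ly6C+ blood (1143 RPM as the mean of 4) overlapped, followed by Ly6C+ marrow, cMoP and MDP. The Ly6C- over Ly6C+ log2 ratio was 1.85 ± 0.14 in marrow, or 2.13 relative to the median (limma adjusted p = 2.28e-11). In blood it was 0.51 ± 0.14 (limma adjusted p = 0.0115), and without Ly6C- blood replicate 3 it was 0.36 (limma adjusted p = 0.102). The difference of these log2 ratios, marrow minus blood, was 1.34 ± 0.20, or 1.62 relative to the median of all genes, -0.28 (limma adjusted p = 2.46e-05).

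Flt3, which supports dendritic cell and early progenitor growth, separated MDP from every other group. Its MDP libraries had 240.1, 254, 276 and 259.6 RPM and its cMoP libraries 14.7, 6.96, 6.97 and 7.42 RPM, a log2 ratio of cMoP over MDP of -4.75 that the sort itself may set. Ly6C+ monocytes had 23.8, 18.4, 27.3 and 24.9 RPM in blood, against 8.49, 7.90 and 11.6 RPM in marrow. The blood and marrow libraries did not overlap, and Flt3 was higher in blood (log2 ratio 1.26 ± 0.27, or 1.45 relative to the median, limma adjusted p = 0.000935). Ly6C- cells had 12.7, 26.4 and 14.7 RPM in blood and 10.9, 11.1, 11.7 and 7.79 RPM in marrow.

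Kit marked the progenitors. It measured 53.0, 83.4, 90.7 and 84.1 RPM in MDP, 64.8, 74.2, 65.2 and 83.5 RPM in cMoP and 3.09, 4.26 and 3.62 RPM in Ly6C+ marrow monocytes. MDP and cMoP overlapped, and the monocyte libraries were lower by a log2 ratio of -3.97 over cMoP. Across the other 14 monocyte libraries Kit ranged between 0 and 5.01 RPM, a handful of reads at most.

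Csf2ra, the GM-CSF α chain, rose at both marrow steps. It measured 30.1, 21.5, 22.3 and 22.7 RPM in MDP, 70.3, 63.5, 68.8 and 59.1 RPM in cMoP and 172, 182 and 216 RPM in Ly6C+ marrow monocytes, with no overlap between the 3 groups. The log2 ratio of cMoP over MDP was 1.41 ± 0.16 (limma adjusted p = 1.64e-07) and that of Ly6C+ monocytes over cMoP 1.52 ± 0.17, or 1.69 relative to the median (limma adjusted p = 3.93e-08). From there on its groups overlapped more. Ly6C- marrow, Ly6C+ blood, Ly6Cint and Ly6C- blood monocytes ranged between 168 and 335 RPM, each overlapping its neighbour in order of means. Their means ran from 203 RPM in Ly6C- marrow to 299 RPM in Ly6C- blood. Ly6C+ blood over marrow was called by edgeR, 0.44 (edgeR adjusted p = 0.0487), and not by the main limma fit. Ly6C- over Ly6C+ blood was called when scaled to the listed genes, 0.44 (limma adjusted p = 0.0440), and not in the main fit.

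Its signalling partner Csf2rb followed the same steps less steeply. The β chain measured 91.0, 81.5, 103 and 84.9 RPM in MDP, 172, 167, 164 and 161 RPM in cMoP and 340.5, 311 and 290.0 RPM in Ly6C+ marrow monocytes, again without overlap. The log2 ratios were 0.88 ± 0.17 (limma adjusted p = 0.000499) for cMoP over MDP and 0.91 ± 0.18, or 1.08 relative to the median, for Ly6C+ monocytes over cMoP (limma adjusted p = 0.000234). The ratio of Csf2ra to Csf2rb levels in RPM therefore differed along the course, from 0.270 in MDP and 0.394 in cMoP to 0.612 in Ly6C+ and 0.890 in Ly6C- marrow monocytes, and it was 0.959, 0.987 and 1.18 in Ly6C+, Ly6Cint and Ly6C- blood monocytes.

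Csf2rb2, the second β chain, stayed an order of magnitude lower, at 0.0836 to 0.133 of the Csf2rb level in RPM in the group means. Ly6C+ marrow monocytes had the highest values, 43.2, 37.1 and 44.2 RPM, against 13.9, 15.9, 17.0 and 8.79 RPM in cMoP, a log2 ratio of 1.55 ± 0.27, or 1.71 relative to the median (limma adjusted p = 4.23e-05). It was lower in Ly6C+ blood monocytes, 30.4, 25.4, 17.6 and 21.9 RPM, without overlap (log2 ratio over marrow -0.80 ± 0.27, or -0.61 relative to the median, limma adjusted p = 0.0294). That call was lost without Ly6C+ marrow replicate 1, -0.77 (limma adjusted p = 0.0872), or 4, -0.75 (limma adjusted p = 0.0896), and without blood replicate 3, -0.67 (limma adjusted p = 0.0858), or 4, -0.77 (limma adjusted p = 0.0595), as well as under quantile scaling, -0.51 (limma adjusted p = 0.180), and by edgeR, -0.60 (edgeR adjusted p = 0.0939).

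Il3ra, the IL-3 α chain, was called between monocyte subsets and not between progenitors and Ly6C+ monocytes: MDP, cMoP and Ly6C+ marrow monocytes overlapped between 21.4 and 40.7 RPM. Ly6C- marrow monocytes had 9.95, 11.1, 15.8 and 17.8 RPM, against 27.8, 40.7 and 39.9 RPM in Ly6C+ marrow monocytes. The groups did not overlap, and Il3ra was lower in Ly6C- cells (log2 ratio -1.36 ± 0.34, or -1.08 relative to the median, limma adjusted p = 0.00222). In blood, Ly6Cint monocytes had 21.7, 9.10 and 6.26 RPM, against 25.3, 33.0, 51.1 and 27.5 RPM in Ly6C+ monocytes, again without overlap (log2 ratio -1.52 ± 0.34, or -1.31 relative to the median, limma adjusted p = 0.00188).

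Csf3r, the G-CSF receptor, rose at the step into monocytes, and its difference between monocyte subsets was not the same in marrow and blood. MDP libraries had 22.7, 19.0, 24.8 and 14.9 RPM, cMoP libraries 33.2, 24.9, 31.8 and 29.4 RPM and Ly6C+ marrow monocytes 43.2, 54.7 and 50.7 RPM. The log2 ratio of Ly6C+ monocytes over cMoP was 0.71 ± 0.23, or 0.88 relative to the median (limma adjusted p = 0.0131), and without Ly6C+ replicate 3 it was 0.64 (limma adjusted p = 0.0610). Ly6C+ blood monocytes had 81.0, 93.7, 151 and 126 RPM, all above the marrow libraries (log2 ratio of blood over marrow 1.14 ± 0.23, or 1.33 relative to the median, limma adjusted p = 0.000328). Neutrophil markers, whose cells carry this receptor, summed to 84.5 to 194 RPM in Ly6C+ blood libraries, against 423 to 577 RPM in Ly6C+ marrow libraries, and their part in the Csf3r values was not tested.

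Within the blood groups of this course, Csf3r was lowest in the intermediate cells. Ly6Cint monocytes had 36.7, 39.5 and 46.6 RPM and Ly6C- monocytes 53.9, 95.1 and 77.4 RPM. Ly6Cint libraries lay below every Ly6C+ and every Ly6C- library. The log2 ratio of Ly6Cint over Ly6C+ was -1.41 ± 0.23, or -1.20 relative to the median (limma adjusted p = 4.95e-05), and 3 of 9 members were called in that comparison (1 higher, 2 lower), against 27.2% (7.95% higher, 19.2% lower) of all genes. The log2 ratio of Ly6C- over Ly6Cint was 0.84 ± 0.24, or 0.64 relative to the median (limma adjusted p = 0.0289), the only 1 of 9 members called there, against 8.87% of all genes. It was not called without Ly6Cint replicate 1, 0.76 (limma adjusted p = 0.0928), or 2, 0.81 (limma adjusted p = 0.0737), without Ly6C- replicate 2, 0.65 (limma adjusted p = 0.169), or 3, 0.80 (limma adjusted p = 0.116), under quantile scaling, 0.60 (limma adjusted p = 0.112), when scaled to the listed genes, 0.69 (limma adjusted p = 0.0640), or by edgeR, 0.70 (edgeR adjusted p = 0.10). In wt blood the Csf3r mean was also lowest in Ly6Cint cells, 92.3 RPM, against 140 RPM in Ly6C+ and 107 RPM in Ly6C- cells. Neither step was called, though Ly6Cint over Ly6C+ had an unadjusted p under 0.05 by limma. Host blood did not show the pattern. There Csf3r averaged 208 in Ly6Cint, 201 in Ly6C+ and 197 in Ly6C- cells, neighbours in that order overlapped, and neither step was called.

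In marrow, Ly6C- monocytes had more Csf3r than Ly6C+ monocytes, 82.1, 76.4, 84.9 and 122 RPM against 43.2, 54.7 and 50.7 RPM. The libraries did not overlap (log2 ratio 0.85 ± 0.23, or 1.13 relative to the median, limma adjusted p = 0.00319). In blood the Ly6C- over Ly6C+ log2 ratio was -0.57 ± 0.23 and was not called (limma adjusted p = 0.0733), except without Ly6C- replicate 2, -0.75 (limma adjusted p = 0.0385), or Ly6C+ replicate 1, -0.71 (limma adjusted p = 0.0242). The difference of the log2 ratios, marrow minus blood, was 1.42 ± 0.32, or 1.70 relative to the median (limma adjusted p = 0.00216), and Csf3r and Csf1r were 2 of 9 members called for that difference, against 17.8% of all genes. In all, 4 of 9 members were called between Ly6C- and Ly6C+ marrow cells (2 higher, 2 lower), against 40.1% (11% higher, 29.1% lower) of all genes, and 1 of 9 in blood, Csf1r, against 20.3%. Ly6C- monocytes of marrow and of blood differed in 0 of 9 members by limma, against 2.54% of all genes, with 2 at an unadjusted p under 0.05 (Csf2ra, log2 ratio -0.54 ± 0.17, and Flt3, -0.68 ± 0.27) and 0 by edgeR; without Ly6C- blood replicate 1 Csf2ra was called, -0.69 (limma adjusted p = 0.0257).

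The fourth member called between Ly6C- and Ly6C+ marrow monocytes was Csf2rb2, at 27.9, 20.9, 28.1 and 16.7 RPM in Ly6C- cells, against 43.2, 37.1 and 44.2 RPM in Ly6C+ cells (log2 ratio -0.83 ± 0.27, or -0.55 relative to the median, limma adjusted p = 0.0155). The libraries did not overlap. The call was lost without Ly6C- replicate 4, -0.68 (limma adjusted p = 0.0551), without Ly6C+ replicate 4, -0.78 (limma adjusted p = 0.0560), under quantile scaling, -0.50 (limma adjusted p = 0.153), when scaled to the listed genes, -0.67 (limma adjusted p = 0.0660), and by edgeR, -0.48 (edgeR adjusted p = 0.156). Csf2rb was not called (-0.43 ± 0.18, limma adjusted p = 0.0623), except without Ly6C- replicate 3, -0.52 (limma adjusted p = 0.0376).

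Il6ra, the IL-6 receptor α chain, was low in progenitors and variable in monocytes. It measured 49.6, 56.3, 86.7 and 48.7 RPM in MDP, 51.5, 55.4, 47.3 and 59.3 RPM in cMoP and 280.2, 199 and 115 RPM in Ly6C+ marrow monocytes. Every Ly6C+ library was above the cMoP libraries (log2 ratio 1.79 ± 0.39, or 1.95 relative to the median, limma adjusted p = 0.000593). Ly6Cint blood monocytes had 282, 321 and 342 RPM, against 290.4, 201, 81.9 and 43.4 RPM in Ly6C+ blood monocytes, and these overlapped. The log2 ratio was 1.38 ± 0.39, or 1.59 relative to the median (limma adjusted p = 0.0104), and without Ly6C+ replicate 4 it was 0.89 (limma adjusted p = 0.0501). In 16-week wt blood these subsets overlapped in Il6ra, with means of 224 RPM in Ly6Cint and 236 RPM in Ly6C+ cells. In host blood of the transfer table Il6ra averaged 374 in Ly6Cint and 569 in Ly6C+ cells. That difference had an unadjusted p under 0.05 by limma and was not called. Ly6C- marrow monocytes had the highest levels, 306, 363, 435 and 319 RPM, against 280.2, 199 and 115 RPM in Ly6C+ marrow monocytes, without overlap. That difference was just short of a call (log2 ratio 0.92 ± 0.39, limma adjusted p = 0.0626) and was called by edgeR, 1.15 (edgeR adjusted p = 0.0180), under quantile scaling, 1.11 (limma adjusted p = 0.0254), when scaled to the listed genes, 1.09 (limma adjusted p = 0.0392), and without Ly6C+ replicate 1, 1.21 (limma adjusted p = 0.0318). The row names a transcript of 8639 bases, and long transcripts as a class took 6.68 to 7.44% of the signal in Ly6Cint libraries, against 5.42 to 6.46% in Ly6C+ blood libraries. The part of that difference in the Il6ra result was not tested.

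Levels of different genes can be set side by side only per length. Counted as RPM per kilobase of transcript, the 9 genes summed to 202 in MDP, 176 in cMoP, 365 in Ly6C+ and 694 in Ly6C- marrow monocytes, and 558, 554 and 703 in Ly6C+, Ly6Cint and Ly6C- blood monocytes. Flt3 made up 35.0% of that sum in MDP and 1.40% in cMoP. Csf1r made up 26.0% in MDP, 32.0% in cMoP, 34.3% in Ly6C+ and 65.0% in Ly6C- marrow monocytes, and 53.0 to 59.5% in the 3 blood groups. Csf2ra took 6.48% in MDP, 20.1% in cMoP and 28.1% in Ly6C+ marrow monocytes. Kit held 7.40% in MDP and 7.82% in cMoP and at most 0.192% in any monocyte group.

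**Figure D2:**
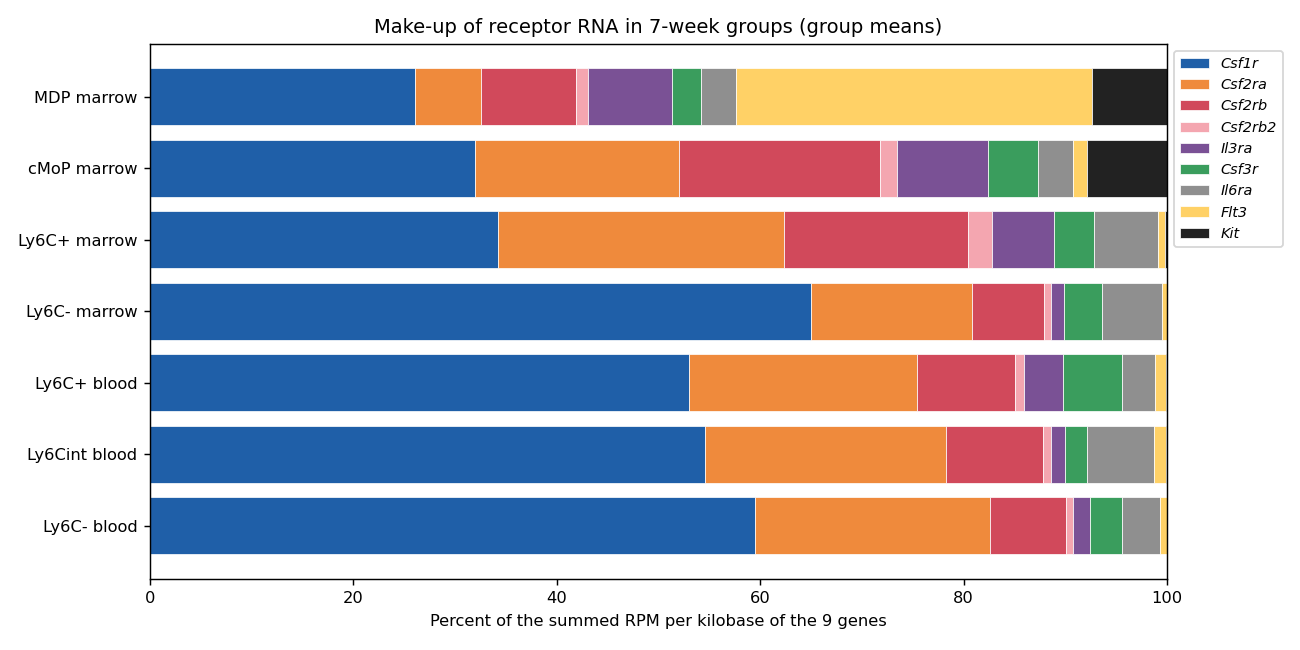
Each horizontal bar is 1 group of the 7-week table, split by the percent that each of the 9 genes takes of their summed RPM per kilobase (group means, no error shown). Flt3 fills 35.0% of the MDP bar and 1.40% of the cMoP bar, and Csf1r fills 65.0% of the bar of Ly6C- marrow monocytes.

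Across the 25 libraries of the 7-week table, the genes whose log2 levels ran most like each member were named as a description, since the libraries share groups and depth. Csf1r ran closest to Abi3 (Pearson r 0.989), St3gal1 (0.988) and Apoe (0.988). Kit ran closest to Angptl4 (0.978), Slc4a8 (0.972) and Shmt1 (0.970), and Flt3 to Dntt (0.920). Csf2ra ran with Arhgef10l (0.982) and Xdh (0.980), Csf2rb with Evi5 (0.951), Csf3r with Man2b1 (0.949) and Il6ra with Ubash3b (0.954). Csf2rb2 (Mocos, 0.840) and Il3ra (Ncf1, 0.830) had looser neighbours. Between members, r ranged between -0.919 for Csf1r with Kit and 0.886 for Csf2ra with Csf2rb.

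Most ligands of these and related receptors were at or near 0 in the sorted cells themselves. Of 13 listed, 5 (Csf2, Csf3, Il3, Thpo and Epo) were at 0 in all 25 libraries of the 7-week table, and 6 (Il34, Kitl, Il5, Il6, Il11 and Tslp) were above 0 in 1 to 15 libraries, at most 3.42 RPM. Flt3l, the ligand of Flt3, was above 0 in all 25 libraries of the 7-week table, between 3.29 and 35.2 RPM. It was lower in Ly6Cint than in Ly6C+ blood monocytes, 13.8 against 30.1 RPM (log2 ratio -1.08 ± 0.29, limma adjusted p = 0.00722). Csf1, for M-CSF, was above 0 in 24 of 25 libraries and at most 5.79 RPM.

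The signalling genes behind the receptors were read from lists chosen with earlier results of these data known. Between Ly6C+ marrow monocytes and cMoP, 16 of 31 tested proximal kinases and adaptors rose and 2 fell, against 37.7% (15.3% higher, 22.4% lower) of all genes called, with a list median log2 ratio of 0.62 beside -0.17 for all genes. Among them Fgr, a SRC family kinase, had 206 RPM in monocytes and 3.43 RPM in cMoP (log2 ratio 5.60 ± 0.25, limma adjusted p = 1.45e-16). Of 7 STAT factors 4 rose and 1 fell, with a median of 1.19. Negative regulators rose in 11 of 23 and fell in 0 by limma, with a median of 0.87, and Ptpn1, a phosphatase acting on JAK kinases, had 324 RPM in monocytes and 110.1 RPM in cMoP. Of 16 listed target genes of STAT5 and STAT3, 7 rose and 5 fell, and among the 5 was Myc, with 12.6 RPM in monocytes and 146 RPM in cMoP.

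At the step of cMoP over MDP, where 9.25% (5.2% higher, 4.05% lower) of all genes were called, kinases and adaptors rose in 3 and fell in 2 of 31, STAT factors rose and fell in 0 of 7 by limma, and negative regulators rose in 2 and fell in 1 of 23. Of the 16 listed target genes 2 rose and 5 fell, with a median log2 ratio of -0.45 beside -0.01 for all genes. Tyrobp, the adaptor DAP12, which cooperates with the M-CSF receptor, had 844 RPM in cMoP and 529.8 RPM in MDP (log2 ratio 0.67 ± 0.14, limma adjusted p = 0.000948). Between Ly6Cint and Ly6C+ blood monocytes, kinases and adaptors rose in 2 and fell in 6 of 31, a share close to the 27.2% (7.95% higher, 19.2% lower) of all genes called there, and STAT factors fell in 3 of 7, among them Stat5b, with 39.5 RPM in Ly6Cint and 82.4 RPM in Ly6C+ cells. The survival gene Bcl2, a listed target, had 153 RPM in Ly6Cint cells and 19.3 RPM in Ly6C+ cells (log2 ratio 2.96 ± 0.21, limma adjusted p = 6.07e-11).

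The comparison of ko with wt blood monocytes asks what the loss named in the series title does to these receptors. Cebpb itself had 114.8 and 57.2 RPM in ko Ly6C+ cells, against 804 and 693 RPM in wt Ly6C+ cells. In Ly6Cint cells it had 186 and 67.1 RPM in ko, against 1734 and 1242 RPM in wt. Both ko groups were lower (log2 ratio -3.19 ± 0.38, limma adjusted p = 0.000551 in Ly6C+ cells, and -3.70 ± 0.38, limma adjusted p = 4.82e-05 in Ly6Cint cells).

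In Ly6C+ monocytes the receptor genes showed 0 of 9 calls between ko and wt by limma, against 1.26% of all 11388 genes tested, with 0 at an unadjusted p under 0.05 and 0 by edgeR. The log2 ratios of the 9 ranged between -0.56 ± 0.27 for Csf3r (limma adjusted p = 0.545) and 0.45 ± 0.25 for Il6ra (limma adjusted p = 0.647). Csf1r had 980.0 and 880.2 RPM in ko cells, against 1109 and 1192 RPM in wt cells, a log2 ratio of -0.31 ± 0.22.

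In Ly6Cint monocytes 3 of 9 members were called between ko and wt (1 higher, 2 lower), against 6.33% (3.63% higher, 2.7% lower) of all genes. The M-CSF receptor fell: Csf1r had 927 and 970.4 RPM in ko cells, against 2619 and 1636 RPM in wt cells, without overlap (log2 ratio -1.13 ± 0.22, limma adjusted p = 0.00550). The G-CSF receptor fell: Csf3r had 29.3 and 48.3 RPM in ko cells, against 107 and 77.2 RPM in wt cells, without overlap (log2 ratio -1.25 ± 0.27, limma adjusted p = 0.0111). The IL-6 receptor α chain rose: Il6ra had 459.9 and 420.5 RPM in ko cells, against 222 and 226 RPM in wt cells, without overlap (log2 ratio 0.97 ± 0.25, limma adjusted p = 0.0300). The GM-CSF chains lay close together in ko and wt cells, with log2 ratios of 0.01 ± 0.18 for Csf2ra and 0.04 ± 0.17 for Csf2rb. Il3ra had 20.5 and 22.0 RPM in ko and 14.8 and 14.8 RPM in wt cells. Csf2rb2 had 30.2 and 30.1 RPM in ko and 17.9 and 27.6 RPM in wt cells, Flt3 23.6 and 24.2 RPM in ko and 19.0 and 7.94 RPM in wt cells, and none of the 3 was called, except Flt3 without wt replicate 1, 1.47 (limma adjusted p = 0.0397).

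**Figure D3:**
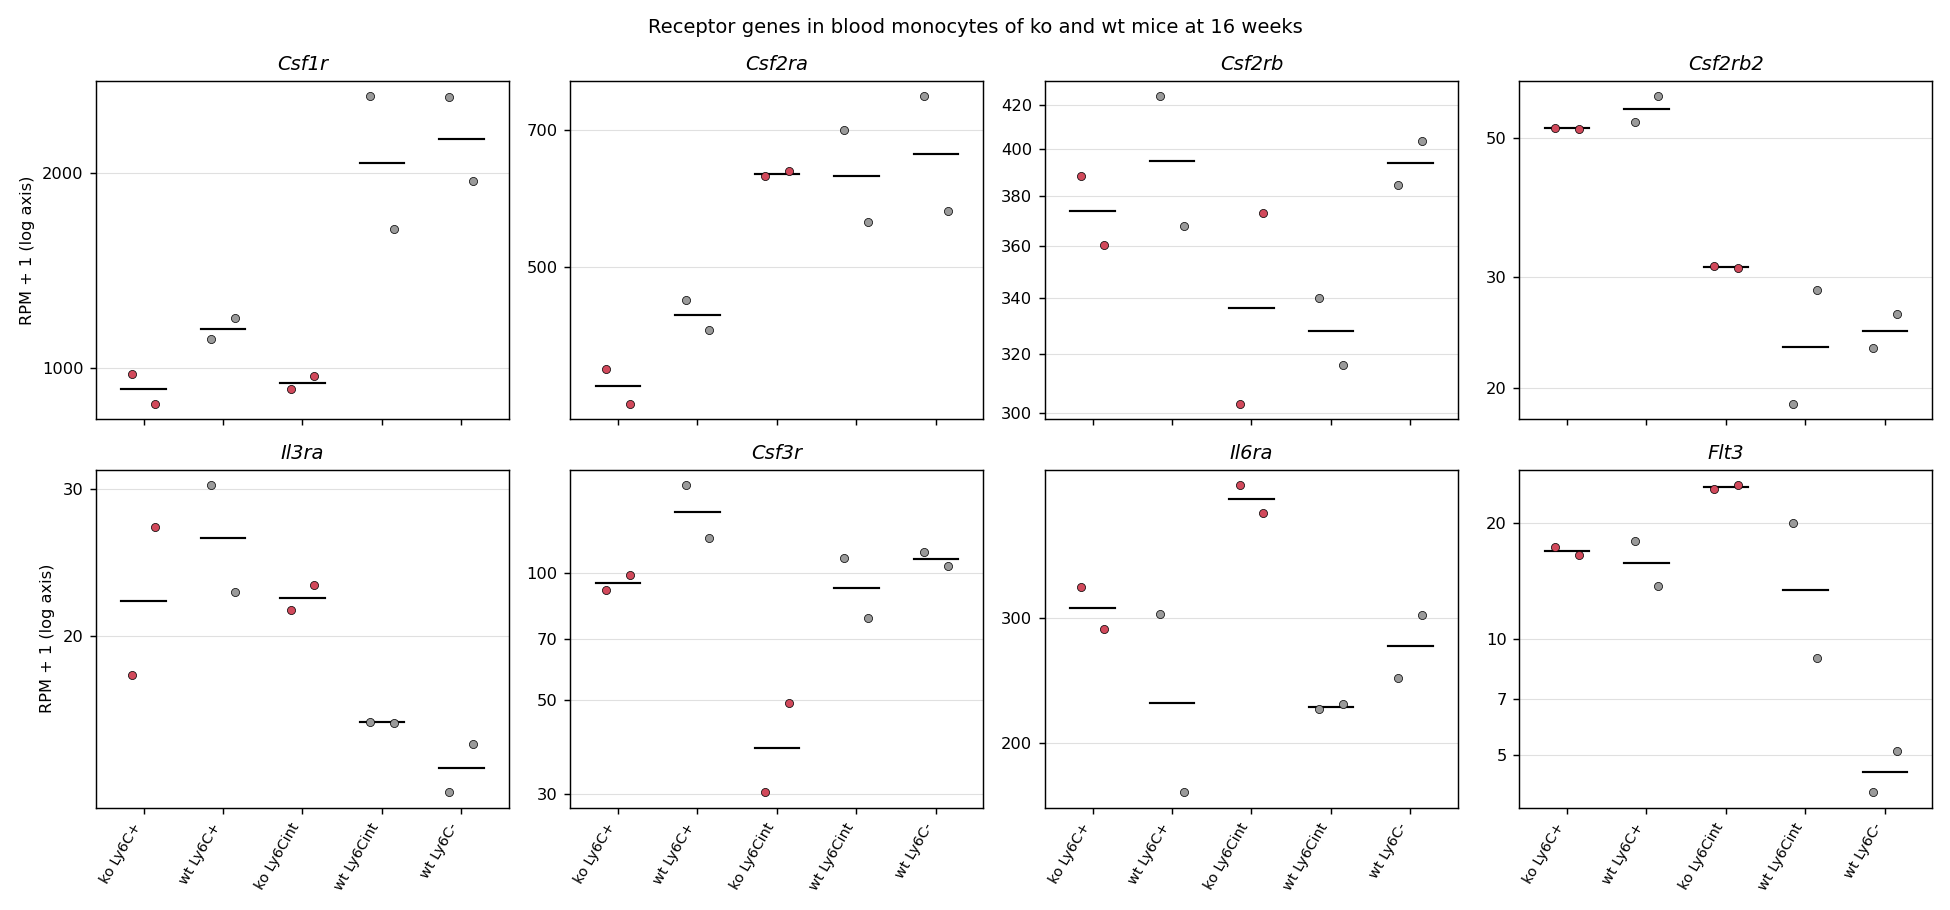
Each dot is 1 library of 16-week blood monocytes, each bar the geometric mean of RPM + 1 in its group, and the vertical axis is RPM + 1 on a log scale, 1 panel per gene with its own range. In Ly6Cint cells the ko dots of Csf1r and Csf3r lie below the wt dots and those of Il6ra above them, and the ko dots of Csf1r lie between 880.2 and 980.0 RPM in both subsets.

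Each of the 3 calls rests on 2 libraries a side. Without ko replicate 1 the log2 ratio was -1.09 (limma adjusted p = 0.0503) for Csf1r, -0.90 (limma adjusted p = 0.154) for Csf3r and 0.90 (limma adjusted p = 0.177) for Il6ra. Without ko replicate 2 it was -1.16 (limma adjusted p = 0.0514) for Csf1r and 1.03 (limma adjusted p = 0.133) for Il6ra. Without wt replicate 1 it was -0.79 (limma adjusted p = 0.0530) for Csf1r, -1.02 (limma adjusted p = 0.0893) for Csf3r and 0.96 (limma adjusted p = 0.0987) for Il6ra, and without wt replicate 2 it was 0.98 (limma adjusted p = 0.0758) for Il6ra. All of these kept their direction. Fitted on the 4 compared libraries alone, the limma adjusted p was 0.0652 for Csf1r, 0.0949 for Csf3r and 0.0529 for Il6ra.

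Dendritic cell markers, as a sum, were higher in ko than in wt cells of both subsets. Their sum was 9762 to 10768 RPM in ko Ly6Cint libraries, against 1915 to 2243 RPM in wt Ly6Cint libraries, and 2236 to 2725 RPM in ko Ly6C+ libraries, against 478 to 522 RPM in wt Ly6C+ libraries. Most of it was H2-Eb1, an MHC class II gene that monocytes also express, at 9732 RPM in ko and 1634 RPM in wt Ly6Cint cells on average. Cd209a averaged 130 RPM in ko and 22.7 RPM in wt Ly6Cint cells, while Itgax averaged 122 RPM in ko and 249 RPM in wt. Of genes of conventional type 1 dendritic cells, Clec9a averaged 4.20 RPM in ko and 3.51 RPM in wt, and Xcr1 0.119 and 0.189 RPM. Zbtb46, a gene of conventional dendritic cells, averaged 2.46 and 2.18 RPM, and Siglech, of plasmacytoid dendritic cells, 0.119 and 0.585 RPM. Macrophage markers summed to 441 to 800 RPM in ko and 180 to 198 RPM in wt Ly6Cint libraries. The part of other cells in the receptor differences was not tested.

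Whether the ko effect differed between subsets was tested directly. By limma 0 of 9 members were called for the ko effect in Ly6Cint minus that in Ly6C+ cells, against 0.00878% of all genes, with 1 at an unadjusted p under 0.05 (Csf1r, -0.82 ± 0.31, limma adjusted p = 0.707) and 0 by edgeR. The difference was -0.69 ± 0.38 for Csf3r and 0.52 ± 0.35 for Il6ra. Within wt mice, Csf1r was higher in Ly6Cint than in Ly6C+ cells, 2619 and 1636 RPM against 1109 and 1192 RPM, the only 1 of 9 called there, against 4.29% of all genes (log2 ratio 0.85 ± 0.22, limma adjusted p = 0.0383). That call was lost without Ly6Cint replicate 1, 0.51 (limma adjusted p = 0.375), and without Ly6C+ replicate 1, 0.80 (limma adjusted p = 0.25), or 2, 0.90 (limma adjusted p = 0.159), and under quantile scaling, 0.68 (limma adjusted p = 0.0717).

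Within ko mice, the 1 of 9 called between Ly6Cint and Ly6C+ cells was Csf3r, against 1.64% of all genes. It had 29.3 and 48.3 RPM in Ly6Cint cells, against 90.0 and 98.1 RPM in Ly6C+ cells (log2 ratio -1.30 ± 0.27, limma adjusted p = 0.0271). The libraries did not overlap. The call was lost without Ly6Cint replicate 1, -0.95 (limma adjusted p = 0.310), and without Ly6C+ replicate 1, -1.36 (limma adjusted p = 0.117), or 2, -1.24 (limma adjusted p = 0.196). Csf2ra had 624 and 632 RPM in ko Ly6Cint cells, against 389 and 357 RPM in ko Ly6C+ cells, a log2 ratio of 0.75 ± 0.18 just short of a call (limma adjusted p = 0.0519) that edgeR called, 0.85 (edgeR adjusted p = 0.0360). Ly6C- and Ly6Cint cells of wt mice differed in 0 of 9 by limma, against 0.448% of all genes, with 1 at an unadjusted p under 0.05, Flt3 (log2 ratio -1.57 ± 0.37, limma adjusted p = 0.0995), which edgeR called. Flt3 had 3.00 and 4.11 RPM in wt Ly6C- cells, against 19.0 and 7.94 RPM in wt Ly6Cint cells.

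Behind the receptors, a negative regulator was higher in ko cells of both subsets. Of 23 tested negative regulators 1 rose and 1 fell in Ly6Cint cells, against 6.33% of all genes called. In Ly6C+ cells 1 rose and 0 fell by limma, against 1.26% of all genes. Dok2, a docking protein that restrains receptor tyrosine kinase signalling, had 164 RPM in ko and 8.36 RPM in wt Ly6Cint cells (log2 ratio 4.09 ± 0.50, limma adjusted p = 0.000232), and 72.2 RPM in ko and 12.0 RPM in wt Ly6C+ cells (log2 ratio 2.56 ± 0.50, limma adjusted p = 0.0231). Its relative Dok3 had 404 RPM in ko and 935 RPM in wt Ly6Cint cells (log2 ratio -1.19 ± 0.18, limma adjusted p = 0.00130). Among 31 kinases and adaptors 0 rose and 3 fell in Ly6Cint cells, against 6.33% (3.63% higher, 2.7% lower) of all genes called, among them Mapk3 (203 RPM in ko, 344 RPM in wt). Of 16 listed STAT target genes 3 rose and 3 fell, among them Ccnd1 (39.3 RPM in ko, 5.65 RPM in wt) and Bcl2 (43.7 RPM in ko, 176 RPM in wt).

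The promoters of Csf3r and Il6ra, which moved in opposite directions in ko Ly6Cint cells, follow as far as they lie outside exons, from RefSeq's GRCm38.p6 sequence, 5′ to 3′ on the strand of the gene. The Csf3r stretch lies inside the span given above for the gene, downstream of the start of that span. Capitals mark the ETS core AGGAAG, the kind of element bound by PU.1.
Csf3r, chr4:126024409-126024549, plus strand: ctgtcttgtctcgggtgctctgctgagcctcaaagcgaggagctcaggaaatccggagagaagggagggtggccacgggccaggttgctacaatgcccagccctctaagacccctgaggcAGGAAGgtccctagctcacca
Il6ra, chr3:89913197-89913446, minus strand: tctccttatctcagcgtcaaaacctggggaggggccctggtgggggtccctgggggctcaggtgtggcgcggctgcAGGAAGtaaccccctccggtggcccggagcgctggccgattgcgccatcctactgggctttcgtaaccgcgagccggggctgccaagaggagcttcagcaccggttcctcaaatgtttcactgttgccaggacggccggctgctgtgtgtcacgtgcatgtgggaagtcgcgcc
In windows of 250 bases before and 50 after the start, 7 of 9 members had a RefSeq promoter that was used, and Csf1r and Csf2rb are named only. The C/EBP core was searched as TTGCNNAA on both strands, TTNNGCAA on the other, and it occurs in 10.8% of 32851 promoters. Il3ra held 1 match, and the windows of Csf2ra, Csf2rb2, Csf3r, Il6ra, Flt3 and Kit held 0. The ETS core AGGAAG, searched on both strands, occurs in 35.4% of all promoters and was found in 6 of 7, with 4 matches in Csf3r and 1 in Il6ra. Of the 4, 1 lies in the stretch printed. Matches are letters only and were not tested for binding.

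The 8-week marrow groups gave the progenitor levels in other libraries. Csf2ra had 91.9 and 109.9 RPM in cMoP, against 47.9 and 51.6 RPM in MDP (log2 ratio 1.00 ± 0.18, or 1.18 relative to the median of all genes, -0.18, limma adjusted p = 0.00477). Without MDP replicate 1 it was 0.95 (limma adjusted p = 0.0758). Flt3 had 25.8 and 20.6 RPM in cMoP and 317 and 317 RPM in MDP. Csf2ra was the 1 of the 8 members other than Flt3 called between cMoP and MDP, against 4.85% of all genes. Csf2rb (log2 ratio 0.60 ± 0.17, limma adjusted p = 0.0591) was not called by limma at this number of libraries, but was called by edgeR, 0.79 (edgeR adjusted p = 0.0304), under quantile scaling, 0.75 (limma adjusted p = 0.0175), and without cMoP replicate 1, 0.77 (limma adjusted p = 0.0385). Csf1r and Kit, which overlapped between the 7-week progenitors, did not overlap here. Csf1r had 562 and 569 RPM in cMoP, against 355 and 331 RPM in MDP (log2 ratio 0.72 ± 0.22, limma adjusted p = 0.0752). Kit had 26.3 and 45.0 RPM in cMoP, against 101 and 87.6 RPM in MDP (log2 ratio -1.43 ± 0.39, limma adjusted p = 0.0516). Neither was called, although Kit was with a pseudocount of 4 RPM, -1.35 (limma adjusted p = 0.00198), and without cMoP replicate 2, -1.80 (limma adjusted p = 0.0279).

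Between 8-week Ly6C+ marrow monocytes and cMoP 7 of the 8 members other than Kit were called (6 higher and 1, Flt3, lower), all but Il3ra, against 36.8% (16.3% higher, 20.5% lower) of all genes. Csf2ra had 317 and 271 RPM in Ly6C+ monocytes (log2 ratio over cMoP 1.54 ± 0.18, limma adjusted p = 1.62e-05). Csf3r had 128 and 99.1 RPM in Ly6C+ monocytes, against 51.2 and 42.5 RPM in cMoP (log2 ratio 1.25 ± 0.27, limma adjusted p = 0.00232). Il6ra had 282 and 371 RPM in Ly6C+ monocytes, against 93.7 and 107 RPM in cMoP (log2 ratio 1.68 ± 0.25, limma adjusted p = 0.000120). Unlike the 7-week groups, where the log2 ratio was 0.09, Flt3 was also lower in Ly6C+ monocytes, 2.45 and 5.00 RPM against 25.8 and 20.6 RPM (log2 ratio -2.40 ± 0.37, limma adjusted p = 0.000172); the tables were scaled separately and this difference was not tested. Csf1r was higher in Ly6C+ monocytes (log2 ratio 0.63 ± 0.22, limma adjusted p = 0.0336) but lost the call without cMoP replicate 1, 0.62 (limma adjusted p = 0.103), or 2, 0.64 (limma adjusted p = 0.0799), and without Ly6C+ replicate 2, 0.47 (limma adjusted p = 0.214), and under quantile scaling, 0.41 (limma adjusted p = 0.117). Csf2rb2, with 6.13 and 26.2 RPM in cMoP, lost it without cMoP replicate 1, 0.91 (limma adjusted p = 0.0579). Neutrophil markers summed to 3446 to 4207 RPM in 8-week cMoP, 3795 to 4689 RPM in 8-week MDP libraries and to 77.0 to 137 RPM in the 7-week progenitor libraries, and their part in these values was not tested.

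The transfer asks what happens to these receptors once Ly6C+ marrow cells enter blood and spleen. Its values are scaled so that each library sums to 1000000, and are not counts, and a value of 0 can be a failed estimate. Where a group has libraries listed at 0, log2 values against it depend on the pseudocount and are not read as folds. Before transfer Csf1r had 639.8 and 748. In spleen it had 1704 and 1685 at 24 h, 1734 and 1566 at 36 h and 1799.8 and 2270.3 at 48 h. In blood it had 2112 and 1879.5, 1667 and 1709.9 and 1540.3 and 1578 at the same times. Every library after transfer stood above both libraries before it, although CD115 enrichment is stated only for the cells before transfer. At 24 h over before transfer the log2 ratio was 1.29 ± 0.16 in spleen, or 1.50 relative to the median of all genes (limma adjusted p = 1.35e-05), and 1.52 ± 0.16 in blood, or 2.05 relative to the median (limma adjusted p = 1.44e-06).

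In blood at 24 h 4 of 9 members were called against the cells before transfer (2 higher, 2 lower), against 13.3% (2.98% higher, 10.3% lower) of all 12096 genes tested, with an all-gene median log2 ratio of -0.53. In spleen 1 of 9 was called, Csf1r, against 5.8%, with a median of -0.21. Both comparisons share the libraries before transfer. The titles letter the blood grafts AC and B and the spleen grafts B and C. Whether these letters mark shared or pooled animals is not stated, and the fit treated the libraries as independent. The GM-CSF α chain separated the sites. Csf2ra had 745 and 836 in spleen grafts and 1518 and 1302 in blood grafts at 24 h, against 580.2 and 656 before transfer. Its rise in blood was called (log2 ratio 1.19 ± 0.16, or 1.71 relative to the median, limma adjusted p = 2.01e-05), and in spleen the log2 ratio was 0.35 ± 0.16 (limma adjusted p = 0.253). Spleen over blood at 24 h gave a log2 ratio of -0.83 ± 0.16, or -1.10 relative to a median of 0.27 (limma adjusted p = 0.00400). In that comparison 3 of 9 members were called, Csf2ra, Csf2rb2 and Flt3, against 4.59% of all genes.

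**Figure D4:**
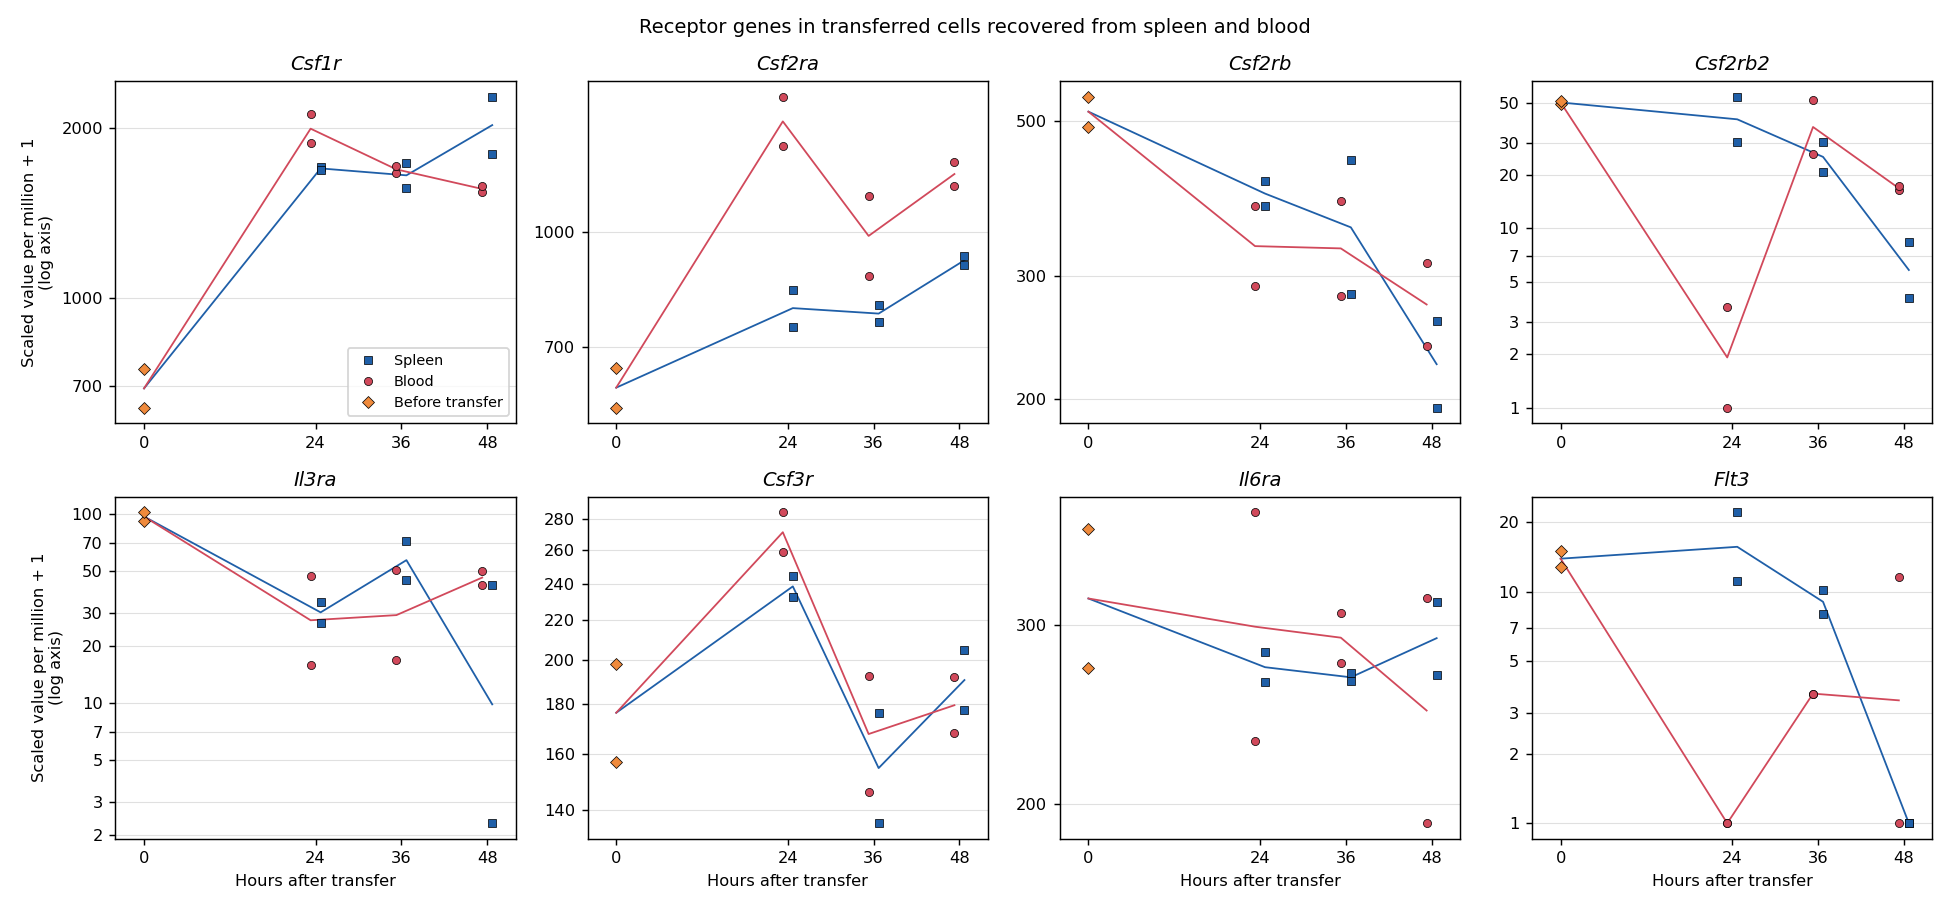
Each mark is 1 library of Ly6C+ marrow cells before transfer (0 h) or 24, 36 and 48 h after it, squares for spleen and circles for blood, shifted slightly sideways, and lines join the geometric means of value + 1 (scaled values, log axis). Csf1r rises in both tissues by 24 h, Csf2ra rises mainly in blood, and Csf2rb2 and Flt3 scatter down to 0.

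Csf2rb2 and Flt3 were sparse in grafts. Csf2rb2 had 48.6 and 50.4 before transfer. In spleen it had 29.4 and 53.5 at 24 h, 29.4 and 19.7 at 36 h and 3.07 and 7.45 at 48 h. In blood it had 2.63 and 0, 25 and 51.3 and 15.3 and 16.2 at these times. It was low at 24 h in blood and low at 48 h in spleen. Csf2rb2 was called lower in blood grafts at 24 h than before transfer (limma adjusted p = 3.51e-05) and higher in spleen than in blood grafts at 24 h (limma adjusted p = 0.000500). Between 48 and 24 h it was the 1 of 9 called in blood, against 8.09% of all genes (log2 ratio 3.14 ± 0.65, limma adjusted p = 0.00453). In spleen 2 of 9 were called, Csf2rb2 and Flt3, both lower, against 2.41% of all genes (Csf2rb2 log2 ratio -2.79 ± 0.65, limma adjusted p = 0.0232). The spleen call was lost without the 24 h library C, -2.37 (limma adjusted p = 0.167), without the 48 h library B, -2.27 (limma adjusted p = 0.0981), and under quantile scaling, -2.14 (limma adjusted p = 0.0976), or a pseudocount of 0.25, -2.98 (limma adjusted p = 0.0632).

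Flt3 had 14.0 and 11.8 before transfer. In spleen grafts it had 10.1 and 21.0 at 24 h, 9.20 and 7.01 at 36 h and was listed at 0 in both libraries at 48 h. In blood grafts it was listed at 0 in both libraries at 24 h, and had 2.63 and 2.63 at 36 h and 0 and 10.5 at 48 h. It was called lower in blood at 24 h (limma adjusted p = 0.00937), higher in spleen than in blood at 24 h (limma adjusted p = 0.0201) and lower in spleen at 48 than at 24 h (limma adjusted p = 0.0259). The first call was lost without library A before transfer, with a limma adjusted p of 0.0912, and without library B, with 0.0666. The second was lost without the spleen library C, with 0.139, and the third without the 24 h spleen library C, with 0.159, or the 48 h library B, with 0.0502. Under quantile scaling the 3 calls were lost, with limma adjusted p of 0.0930, 0.108 and 0.103, and the third was lost with a pseudocount of 4, with 0.0544. The 24 h blood grafts listed 8278 and 8109 genes above 0, against 11719 and 11574 before transfer. Spleen grafts listed 8396 and 8614 genes above 0 at 48 h, against 10970 and 9354 at 24 h. The part of these counts in the low values of Flt3 and Csf2rb2 was not tested.

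The change between 24 and 48 h in spleen minus that in blood was called for 2 of 9 members, Csf2rb2 (limma adjusted p = 0.00317) and Flt3 (limma adjusted p = 0.0252), against 2.63% of all genes. The Flt3 call was lost without the 48 h blood library B, -3.97 (limma adjusted p = 0.0563), without the 24 h spleen library C, -5.23 (limma adjusted p = 0.0869), under quantile scaling, -4.57 (limma adjusted p = 0.0913), and with a pseudocount of 4, -3.16 (limma adjusted p = 0.0529). The β chain Csf2rb had 541 and 489.9 before transfer, 409 and 377 at 24 h and 194 and 258 at 48 h in spleen, and 289 and 377 at 24 h and 312 and 238 at 48 h in blood. All libraries after transfer were below those before it at these times. No call was made, with log2 ratios of -0.64 ± 0.24 for blood at 24 h over before transfer (limma adjusted p = 0.0860) and -0.81 ± 0.24 for spleen at 48 over 24 h (limma adjusted p = 0.0800), except the second without the 48 h spleen library C, -1.02 (limma adjusted p = 0.0409). The Csf2ra to Csf2rb ratio averaged 4.35 in blood grafts at 24 h and 1.21 before transfer. Csf3r had 284 and 258 in blood at 24 h and 156 and 197 before transfer, and Il6ra 386 and 229.6 and 271 and 372; neither was called at any of these steps. Il3ra had 25.4 and 33.3 in spleen and 46.0 and 14.9 in blood grafts at 24 h, against 90.7 and 101 before transfer. These libraries did not overlap with those before transfer, and neither difference was called (log2 ratio -1.68 ± 0.90, limma adjusted p = 0.390, in spleen and -1.82 ± 0.90, limma adjusted p = 0.196, in blood). Kit was listed at 0 in all but 1 graft library, which had 2.63 (spleen, 36 h), and in both libraries before transfer.

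Markers of other cell types were also read in the graft libraries and in the cells before transfer. Which cells this marker RNA came from was not tested. Erythroid and platelet markers summed to 2006 to 4263 in blood grafts at 24 h, against 13.1 to 25 before transfer. Macrophage markers reached 1610.0 to 4864 and B cell markers 288 to 795 in spleen grafts at 36 h. Progenitor markers summed to 11.0 to 18.8 in blood grafts at 24 h and to 714 to 731 before transfer. The part of these in the receptor values was not tested.

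Among signalling genes a feedback inhibitor and a survival gene were higher in grafts. Socs3, which binds the activated G-CSF receptor and gp130 and blocks JAK kinases, had 141 in spleen grafts and 227 in blood grafts at 24 h, against 16.4 before transfer (log2 ratio in blood 3.65 ± 0.30, limma adjusted p = 5.61e-08). Negative regulators rose in 3 and fell in 4 of 25 in blood, where 13.3% (2.98% higher, 10.3% lower) of all genes were called, and rose in 2 and fell in 1 in spleen, where 5.8% were called. Kinases and adaptors rose in 4 and fell in 2 of 31 in blood, among them Fyn (206 in blood grafts, 27.4 before transfer). Bcl2 had 181 in spleen grafts and 162 in blood grafts at 24 h, against 7.01 before transfer (log2 ratio in blood 4.13 ± 0.50, limma adjusted p = 8.34e-06).

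At 48 h the grafts were set against the hosts' Ly6C- monocytes of the same tissue. In blood 1 of 9 was called, against 3.72% of all genes: Csf2rb had 312 and 238 in grafts, against 495 and 523 in hosts (log2 ratio -0.90 ± 0.24, or -0.58 relative to a median of -0.31, limma adjusted p = 0.0419). It was lost without graft library B, -0.70 (limma adjusted p = 0.194), and without host library A, -0.94 (limma adjusted p = 0.189), or B, -0.86 (limma adjusted p = 0.219). In spleen 3 of the 8 members other than Kit were called, all lower in grafts, against 5.44% of all genes with a median log2 ratio of -0.46. Csf2rb had 194 and 258 in grafts, against 559 and 568 in hosts, without overlap (log2 ratio -1.33 ± 0.24, or -0.86 relative to the median, limma adjusted p = 0.00342). Csf2rb2 had 3.07 and 7.45 in grafts, against 48.6 and 62.7 in hosts (log2 ratio -3.26 ± 0.65, or -2.80 relative to the median, limma adjusted p = 0.00698). Flt3 was listed at 0 in the grafts, against 57.8 and 57.4 in hosts (limma adjusted p = 0.00146). Kit was listed at 0 in the grafts and had 12.7 and 11.8 in hosts. These spleen grafts listed 8396 and 8614 genes above 0, against 11234 and 11031 in the hosts' Ly6C- cells of spleen. In blood the counts were 8761 and 7734 in grafts, against 10672 and 10451 in hosts. The part of these counts in the low graft values was not tested. Without host library A the limma adjusted p was 0.0553 for Csf2rb and 0.0717 for Csf2rb2, and without host library B it was 0.081 for Csf2rb2.

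The hosts' own monocytes gave a small set of calls. In blood, Csf1r was higher in Ly6Cint than in Ly6C+ cells, 1869.5 and 2328 against 1264 and 1258, 1 of 9 called, against 1.16% of all genes (log2 ratio 0.73 ± 0.16, limma adjusted p = 0.0221). The call was lost without Ly6Cint library B, 0.57 (limma adjusted p = 0.325), and without Ly6C+ library A, 0.73 (limma adjusted p = 0.196), or B, 0.72 (limma adjusted p = 0.140). In spleen 0 of the 8 members other than Kit were called by limma, against 0.562% of all genes, with 2 at an unadjusted p under 0.05 (Csf3r and Il6ra). Kit had 8.33 and 4.82 in Ly6Cint cells of spleen and was listed at 0 in Ly6C+ cells. Ly6C- and Ly6Cint host cells differed in 0 of 9 by limma in blood, against 0.107% of all genes, with 2 at an unadjusted p under 0.05 (Csf2ra and Flt3), and in 0 of 9 in spleen, against 0.215%, with 1 (Csf1r). No counts were recovered for this table, so edgeR was not run on it.

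The clearest contrast between host tissues was in Ly6C- cells, where Flt3 was the 1 of the 8 members other than Kit called between spleen and blood, higher in spleen, against 0.19% of all genes. Flt3 had 57.8 and 57.4 in spleen, against 1.31 and 0 in blood (limma adjusted p = 0.0117). Kit had 12.7 and 11.8 in spleen and was listed at 0 in blood. Neither pair overlapped. Flt3 was not called without blood library A (limma adjusted p = 0.052) or B (0.338) or without either spleen library (0.177 each), or with a pseudocount of 0.25 (0.0567). Ly6Cint cells of spleen also had the higher Flt3, 94.7 and 84.1, against 33.7 and 17.1 in blood, while Ly6C+ cells overlapped, at 50.4 and 37.7 in spleen and 40.8 and 46.9 in blood. Ly6C+ host cells of spleen and blood differed in 0 of 9 by limma, against 0.0909% of all genes, with 2 at an unadjusted p under 0.05 (Csf2ra, log2 ratio 0.47 ± 0.16, and Csf3r, 0.73 ± 0.23).

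**Figure D5:**
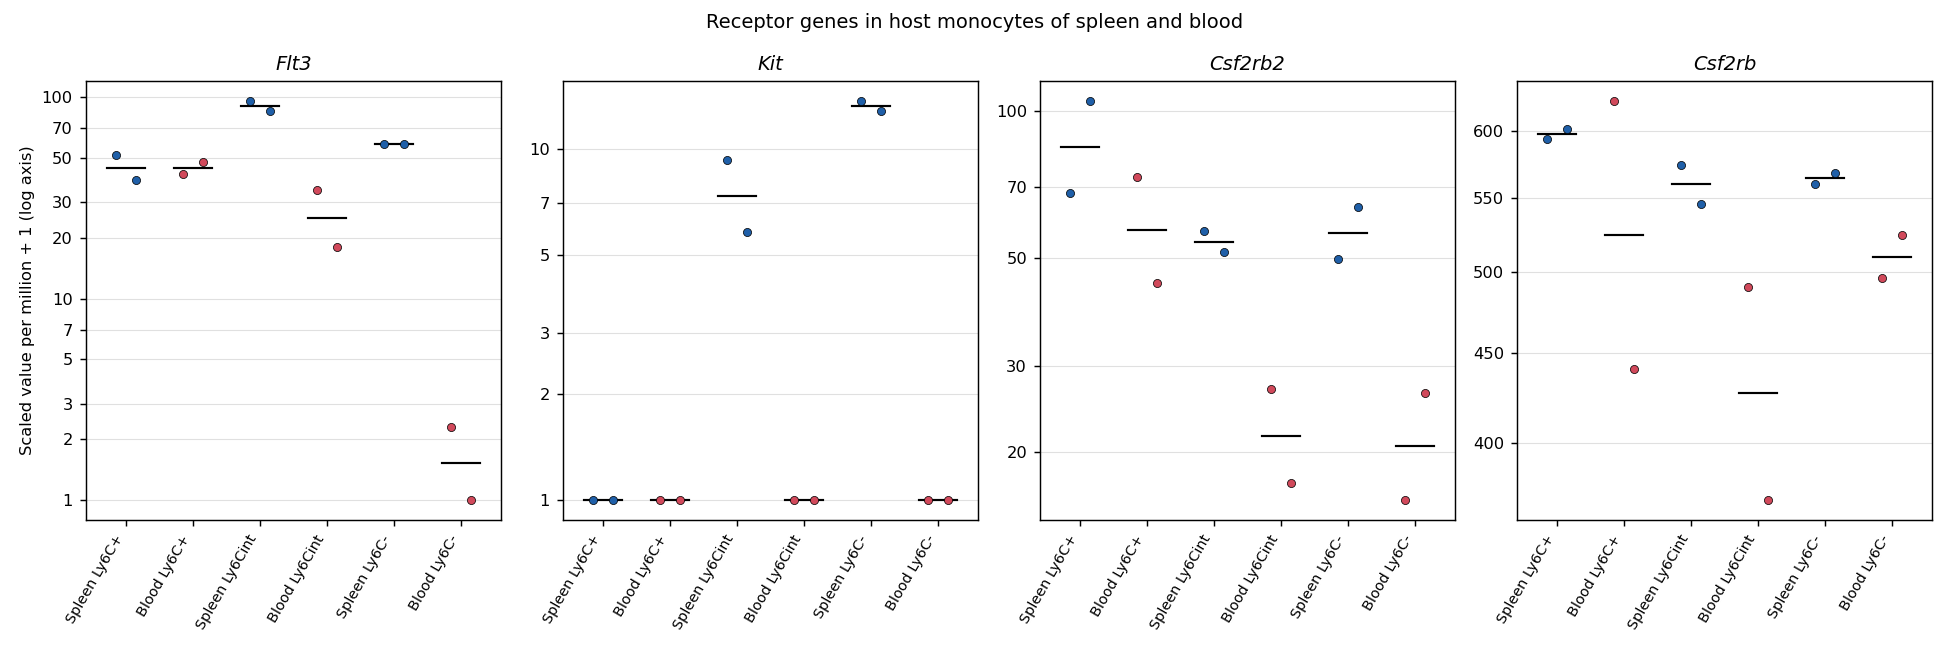
Each dot is 1 library of host monocytes at 24 h, spleen left of blood for each subset, each bar the geometric mean of value + 1, and the vertical axis is the scaled value + 1 on a log scale, 1 panel per gene. Flt3 and Kit are above the blood dots in spleen Ly6C- cells, and Kit is at 0 in all blood libraries.

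Dendritic cell and B cell markers differed between the same host groups. Dendritic cell markers summed to 4339 to 4845 in spleen Ly6C- libraries, against 994 to 1225 in blood Ly6C- libraries. In Ly6Cint libraries they summed to 4693 to 5769 in spleen, against 1758 to 4211 in blood, and in Ly6C+ libraries to 901 to 1063 in spleen, against 1074 to 1216 in blood. Most of the spleen Ly6C- sum was H2-Eb1, which averaged 3352.5 in spleen and 351 in blood Ly6C- cells. Xcr1, a gene of type 1 conventional dendritic cells, and Zbtb46, a gene of conventional dendritic cells, were listed at 0 in both spleen Ly6C- libraries. Clec9a, which marks type 1 conventional dendritic cells, averaged 14.5 in spleen Ly6C- cells and was listed at 0 in blood Ly6C- cells, and Cd209a averaged 290.1 in spleen and 21.9 in blood Ly6C- cells. In spleen Ly6Cint cells, the host group with the highest Flt3, Xcr1 averaged 1.31, Zbtb46 5.92, Clec9a 23.4 and Cd209a 509. In blood Ly6Cint cells Xcr1 was listed at 0, and the others averaged 3.07, 5.04 and 200 in that order. B cell markers summed to 213 to 299 in spleen Ly6C- libraries, against 35.9 to 96.8 in blood. Basophil and mast cell markers, whose cells carry Kit, summed to at most 1.31 in spleen Ly6C- libraries and 2.19 in spleen Ly6Cint libraries. The part of dendritic and B cells in the Flt3 and Kit values was not tested. The spleen minus blood difference of the steps between host subsets was called for 0 of 9 members by limma at either step, against 0.00827% of all genes for Ly6Cint over Ly6C+ (Csf1r and Csf3r, other than Kit, at an unadjusted p under 0.05) and 0% for Ly6C- over Ly6Cint (Csf1r and Flt3).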

How the data were processed

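Reads were aligned to mm9 with HISAT 0.1.5 and counted with HOMER, per the submitters' processing notes; SAMtools and bcl2fastq are also named there. The deposited 7-week and ko tables hold normalized gene signal: within a library, 100% of values were whole multiples of 1 read within a tolerance of 0.1. Each library was taken to be scaled to 10000000 reads, HOMER's usual output, which the sources used here do not state, and values were divided to RPM. The transfer table, as deposited, is a scaled, rounded score with no recoverable reads, and each library was divided by its listed total. For each of the deposited tables a limma-trend model (limma 3.58.1, R 4.3.3) with 1 mean per group was fitted to log2(RPM + 1) over all genes passing the filter, with two-sided tests and Benjamini-Hochberg adjustment. edgeR 4.0.16 was run on the recovered reads as an alternative. The step was tested on simulated counts. The members and lists were chosen with earlier results of these data known. All members were described. From each list, called genes were named by the size of the log2 ratio at 20 RPM or more. For likeness, genes were ranked by Pearson r. The 5 comparisons of differences between tissues and of graft tissues at 24 h were added after seeing the data. Precision is limited by 2 to 4 libraries a group, and a level under 1.11 RPM can be a single read in the 7-week table. Sequences came from RefSeq's promoter table of GRCm38.p6. The sorted population, B, T and NK, basophil and mast, erythroid and platelet, macrophage, neutrophil, progenitor and dendritic marker lists were summed per library. T and NK cell markers summed to at most 272 RPM in the 7-week table. A few genes of the lists are not reported here by name.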

Additional observations from a re-analysis of the deposited data

Results flagged for a closer look

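Of 36 sets of values tested (9 genes in 4 groups of 4 libraries), 1 library stood far from its group in 2 sets, and chance alone flags about 1 set in 20. Csf2ra had 30.1 RPM in 1 MDP library of 7-week mice and 21.5, 22.3 and 22.7 RPM in the others. Flt3 had 14.7 RPM in 1 cMoP library of 7-week mice and 6.96, 6.97 and 7.42 RPM in the others.

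In 7-week mice the Ly6C- over Ly6C+ effect differed between marrow and blood for Csf1r by a log2 value of 1.34 (1.85 in marrow, 0.51 in blood, limma adjusted p = 2.46e-05) and for Csf3r by 1.42 (0.85 in marrow, -0.57 in blood, limma adjusted p = 0.00216).

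The change between 24 and 48 h after transfer differed between spleen and blood for Csf2rb2 by -5.93 (-2.79 in spleen, 3.14 in blood, limma adjusted p = 0.00317) and for Flt3 by -5.73 (limma adjusted p = 0.0252). All graft libraries moved in opposite directions in the tissues for Csf1r, by 0.608 (0.25 in spleen, -0.35 in blood, limma adjusted p = 0.16), and for Csf2ra, by 0.448 (0.21 in spleen, -0.23 in blood, limma adjusted p = 0.293), neither of which was called. At 24 h the graft level in spleen differed from that in blood by -0.832 for Csf2ra (limma adjusted p = 0.004), by 4.42 for Csf2rb2 (limma adjusted p = 0.0005) and by 3.97 for Flt3 (limma adjusted p = 0.0201). Flt3 was listed at 0 in both blood libraries at 24 h and both spleen libraries at 48 h, so its log2 values depend on the pseudocount and are no fold. Csf2rb2 was also listed at 0 in a blood library at 24 h, so the same holds for its log2 values against that group.

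In hosts, Flt3 was higher in Ly6Cint than in Ly6C+ spleen cells and lower in blood cells in every library, a difference of 1.85 that was not called (1.02 in spleen, -0.84 in blood, limma adjusted p = 1). In ko over wt cells, Csf2rb2 was higher in every Ly6Cint library and lower in every Ly6C+ library, a difference of 0.524 that was not called (0.42 in Ly6Cint, -0.10 in Ly6C+, limma adjusted p = 1).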

How the results depend on the processing

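Of 297 log2 ratios of members, 62 were called. Over 3651 values under alternative settings 3500 kept direction and call, 108 lost a call, 43 gained one and 0 changed the sign of a called value. Of the 62 calls, 31 held under every alternative tried. These numbers and those of members called that follow are over all 9, the Flt3 and Kit differences of the sort and the filter included.

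The number of members called moved by over 1.5 times in these cases. With the fit restricted to the compared groups it was 0 for ko over wt Ly6Cint cells (3 in the fit on all groups), Ly6C- over Ly6Cint (1) and Ly6C- over Ly6C+ (1) 7-week blood, wt Ly6Cint over Ly6C+ (1), blood grafts at 48 over 24 h (1), spleen grafts at 48 over 24 h (2), the spleen minus blood difference of that change (2), spleen over blood grafts at 24 h (3), blood grafts at 48 h over host Ly6C- cells (1), and host Ly6Cint over Ly6C+ cells in blood (1) and in spleen (1). It was 1 for 8-week cMoP over MDP (2) and for host Ly6C- spleen over blood (2), and 2 for ko Ly6Cint over Ly6C+ (1). Such fits have fewer residual degrees of freedom. Under quantile scaling it was 0 for Ly6C- over Ly6Cint 7-week blood, wt Ly6Cint over Ly6C+ and spleen grafts at 48 over 24 h, 1 for the difference of that change between tissues and 2 for ko Ly6Cint over Ly6C+. Scaled to the listed genes it was 0 for Ly6C- over Ly6Cint and 2 for Ly6C- over Ly6C+ 7-week blood. By edgeR it was 0 for Ly6C- over Ly6Cint 7-week blood, 2 for ko Ly6Cint over Ly6C+ and 1 for wt Ly6C- over Ly6Cint (0 by limma). With a pseudocount of 4 it was 2 for ko Ly6Cint over Ly6C+, and 1 for spleen grafts at 48 over 24 h and for the tissue difference. With a pseudocount of 0.25 it was 1 for spleen grafts at 48 over 24 h and for host Ly6C- spleen over blood. With no filter it was 0 for wt Ly6Cint over Ly6C+ and for blood grafts at 48 h over hosts. The causes were not tested.

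Leaving out 1 library at a time gave between 0 and 2 members for Ly6C- over Ly6Cint 7-week blood, 0 and 4 for Ly6C- over Ly6C+ 7-week blood, 0 and 1 for Ly6C- marrow over blood, 0 and 2 for ko over wt Ly6Cint, 0 and 1 for Ly6Cint over Ly6C+ in wt and in ko and for wt Ly6C- over Ly6Cint, and 1 and 3 for 8-week cMoP over MDP. In the transfer table it gave between 1 and 2 for blood grafts at 48 over 24 h, 0 and 3 for spleen grafts at 48 over 24 h, 1 and 3 for the tissue difference, 2 and 3 for spleen over blood grafts at 24 h, 0 and 2 for blood and 2 and 5 for spleen grafts at 48 h over hosts, 0 and 1 for host Ly6Cint over Ly6C+ in blood, 0 in spleen, and 0 and 1 for host Ly6C- spleen over blood. Where this left 1 library in a group, that library was assumed to vary like the other groups.

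Same-numbered libraries did not deviate together in most comparisons, and did so weakly in some. Correlations of their deviations ranged between -0.31 and 0.38. The highest was for replicate 1 of 7-week cMoP and MDP. For Ly6C- and Ly6C+ 7-week blood they were 0.37, -0.02 and 0.32 for replicates 1, 2 and 3. In groups of 2 libraries both correlations are the same value by construction. With the replicate number as a block, 0 members were called for ko Ly6Cint over Ly6C+ (Csf3r, limma adjusted p = 0.0551), and Csf2rb was called for Ly6C- over Ly6C+ 7-week marrow, -0.45 (limma adjusted p = 0.0415).

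Quantile scaling moved the median log2 ratio of all genes by over 0.1 in 14 of 33 comparisons, between -0.32 and 0.56, and for Ly6C+ blood over marrow the share of calls that were higher was 28.1% before it and 51.6% after it. Numbers of all genes called moved by over 1.5 times in 26 comparisons fitted on the compared groups alone (ko over wt, 721 with all groups and 273 alone in Ly6Cint cells, 144 and 405 in Ly6C+ cells), in 5 by edgeR (Ly6Cint over Ly6C+ 7-week blood, 3092 by limma and 1976 by edgeR), in 7 under quantile scaling, 8 with no filter, 4 and 1 with a pseudocount of 4 and 0.25, and 2 under the block.

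Depth limits Kit in monocytes, where 1 read decides a level, and the depth of the transfer table is unknown.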
